A study of Mus musculus with 4 samples.

Results

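Cycling regulatory T cells were examined among viable CD45+ leukocytes sorted from orthotopic EO771 mammary tumors and sequenced one by one on the 10X Chromium platform. EO771 is a mammary tumor cell line of C57BL/6 mice. Tumors came from 2 female Csf1rfl/fl mice, in which both copies of the gene for colony-stimulating factor 1 receptor carry loxP sites, and from 2 female Lyve1CreCsf1rfl/fl mice, which carry the same floxed alleles together with a Cre recombinase expressed from the Lyve1 gene and so lose Csf1r in cells that express Lyve1. All tumors were grown to 1.5 cm3. The authors used this cross to deplete LYVE-1+ macrophages. Lyve1 is also active in lymphatic endothelium, so Cre is not limited to macrophages, but the authors state that lymphatic endothelial cells do not express CSF1R. Cells of 1 Csf1rfl/fl and 1 Lyve1CreCsf1rfl/fl tumor were stained with different hashtag antibodies and loaded together, in each of 2 Chromium runs. Members were chosen by their own UMIs of the genes that follow. A cell was counted as a cycling regulatory T cell (Treg) when the authors had kept it and when it held at least 1 unique molecular identifier (UMI, a count of 1 captured transcript) each of Mki67, Top2a, Foxp3 and of the Cd3d, Cd3e and Cd3g genes together, at most 1 UMI of Cd8a and Cd8b1, fewer than 300 S100a8 and S100a9 UMIs per 10000 and fewer than 20 C1qa, C1qb and C1qc UMIs per 10000. This gave 502 of the 28429 kept cells. In runs 1 and 2, 91 and 138 of them came from the Csf1rfl/fl tumors and 155 and 118 from the Lyve1CreCsf1rfl/fl tumors, and sets of values by tumor are given in this order below.

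Tregs are CD4+ T cells that restrain other immune cells and depend on the transcription factor Foxp3. In tumors they divide after stimulation through the T cell receptor and interleukin-2, whose high-affinity receptor includes Il2ra, and they carry checkpoint and costimulatory receptors such as Ctla4, Icos, Tnfrsf4 and Tnfrsf18. A dividing cell first induces the genes of DNA replication under the E2F factors, makes core histones while it copies its DNA, and then induces the genes of G2 phase and mitosis through B-Myb, FoxM1 and NF-Y. Mki67, a protein of the surface of mitotic chromosomes, and Top2a, a topoisomerase that untangles replicated DNA, belong to the later program.

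Promoters of 3 genes of the later program and of 1 replication gene show the elements named for these factors, and these genes are shown because the rule rests on the later program and members also differed in the earlier one. The sequences are from RefSeq (GRCm38.p6), run 5′ to 3′ on the gene's strand from 250 bases before the start to 30 bases after it, and have in capitals the CHR element (TTTGAA or TTCAAA), the CCAAT box of NF-Y (CCAAT or ATTGG) and the E2F site (TTCCCGC or GCGGGAA). No motif contains another, and both strands were searched. Top2a lies on the minus strand at chr11:98992947-99024199, and the window of Top2a is chr11:99024160-99024439, that of Cdk1, the mitotic kinase, chr10:69352883-69353162 (minus strand), that of Ccnb2, a mitotic cyclin, chr9:70421525-70421804 (minus strand) and that of Mcm3, a subunit of the replication helicase, chr1:20820283-20820562 (minus strand).
Top2a: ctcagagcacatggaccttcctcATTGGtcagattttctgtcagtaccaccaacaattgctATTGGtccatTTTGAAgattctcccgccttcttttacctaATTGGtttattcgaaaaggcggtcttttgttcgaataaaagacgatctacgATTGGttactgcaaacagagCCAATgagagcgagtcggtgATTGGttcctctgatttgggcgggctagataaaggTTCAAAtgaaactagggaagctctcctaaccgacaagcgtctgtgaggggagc
Cdk1: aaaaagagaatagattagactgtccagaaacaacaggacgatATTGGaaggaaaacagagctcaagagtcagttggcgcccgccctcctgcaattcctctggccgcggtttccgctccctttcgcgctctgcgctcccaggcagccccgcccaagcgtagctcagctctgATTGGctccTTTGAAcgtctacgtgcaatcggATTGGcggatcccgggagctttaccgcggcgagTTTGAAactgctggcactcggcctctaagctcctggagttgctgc
Ccnb2: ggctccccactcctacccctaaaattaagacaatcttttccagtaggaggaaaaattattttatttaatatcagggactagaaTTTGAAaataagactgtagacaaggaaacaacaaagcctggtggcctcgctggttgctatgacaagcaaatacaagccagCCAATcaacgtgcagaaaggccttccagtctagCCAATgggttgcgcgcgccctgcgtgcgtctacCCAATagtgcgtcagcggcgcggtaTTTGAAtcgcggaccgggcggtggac
Mcm3: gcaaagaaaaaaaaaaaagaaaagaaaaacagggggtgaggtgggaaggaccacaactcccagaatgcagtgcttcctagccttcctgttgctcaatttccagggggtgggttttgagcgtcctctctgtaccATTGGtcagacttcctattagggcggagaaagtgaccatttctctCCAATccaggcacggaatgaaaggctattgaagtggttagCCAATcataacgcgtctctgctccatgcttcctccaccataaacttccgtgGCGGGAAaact
The Top2a window held 2 CHR elements and 6 CCAAT boxes, those of Cdk1 and Ccnb2 held 2 and 3 each, and that of Mcm3 held 3 CCAAT boxes, 1 E2F site and no CHR element. In windows of 300 bases from the same first base, the CHR element was found in 54 of 90 matched genes of the G2 and mitosis list (60%), in 7 of 40 matched genes of the replication list (17.5%) and in 20.2% of all 27025 promoters. The E2F site was found in 9 (10%), in 16 (40%) and in 5.29%, in the same order, and the CCAAT box in 70%, 65% and 41.1%. A match describes letters only, and no histone gene had a promoter in the table used.

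The label was set beside markers that the rule did not use, with cycling CD8 T cells as the only class compared. Cd4, the coreceptor of Tregs, had 0.904, 1.22, 1.08 and 1.23 UMIs per 10000 in the members of the 4 tumors and 0.0216 to 0.0852 in cycling CD8 T cells, which were chosen in the same way but with at least 2 Cd8a and Cd8b1 UMIs and no Foxp3. A Cd4 UMI was found in 64.5% of members and in 3.31% of cycling CD8 T cells. Ctla4, Il2ra and Ikzf2, which encodes the Treg factor Helios, were detected in 76.7%, 82.9% and 99.6% of members and in 34.7%, 26.8% and 66.6% of cycling CD8 T cells, so that Ikzf2 was found in most cells of both classes. The CD8 class was chosen by its Cd8 UMIs, which favors a gap in Cd4. Whether these markers tell members from cycling CD4 T cells without Foxp3 was not tested. Among cycling cells with a Cd3 UMI and few Cd8 UMIs, 502 of 964 (52.1%, median 8601 UMIs per cell) held a Foxp3 UMI, and of those with a Cd4 UMI 324 of 477 did (67.9%). Of cycling T cells with at least 2 Cd8 UMIs 76 of 1013 held one (7.5%, median 9558 UMIs), of cycling cells high in S100a8 and S100a9 22 of 85 (25.9%, 10758 UMIs), and of cycling cells high in C1q genes without Cd3 0 of 49, which allows a share of up to 6.12% (14059 UMIs). Foxp3 is a gene of the rule and the 502 cells are the members, so these shares are a description and do not check the label. Foxp3 was also found in 2 of the cell types that should lack it.

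Foxp3, Mki67 and Top2a chose the members, and their values are a description. Foxp3 had 2.0, 2.99, 2.06 and 2.57 UMIs per 10000, Mki67 5.86, 9.10, 7.40 and 7.89, and Top2a 4.78, 8.29, 6.50 and 8.65. Members held a median of 6 UMIs of each of the 2 cycle genes. At the edge of the rule lay 26 members with 1 UMI of each (median 4651 UMIs per cell), and just outside it 197 Foxp3 T cells with Mki67 but no Top2a and 189 with Top2a but no Mki67 (median 4413.5 UMIs together). Of the members, 179 held 1 Foxp3 UMI and 323 at least 2, 33 held 1 Cd8 UMI, and 9 further cells were left out by 1 Cd8 UMI. Foxp3 T cells with neither cycle gene numbered 982 and are called non-cycling Tregs, as cells in which neither gene was captured.

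**Figure D1:**
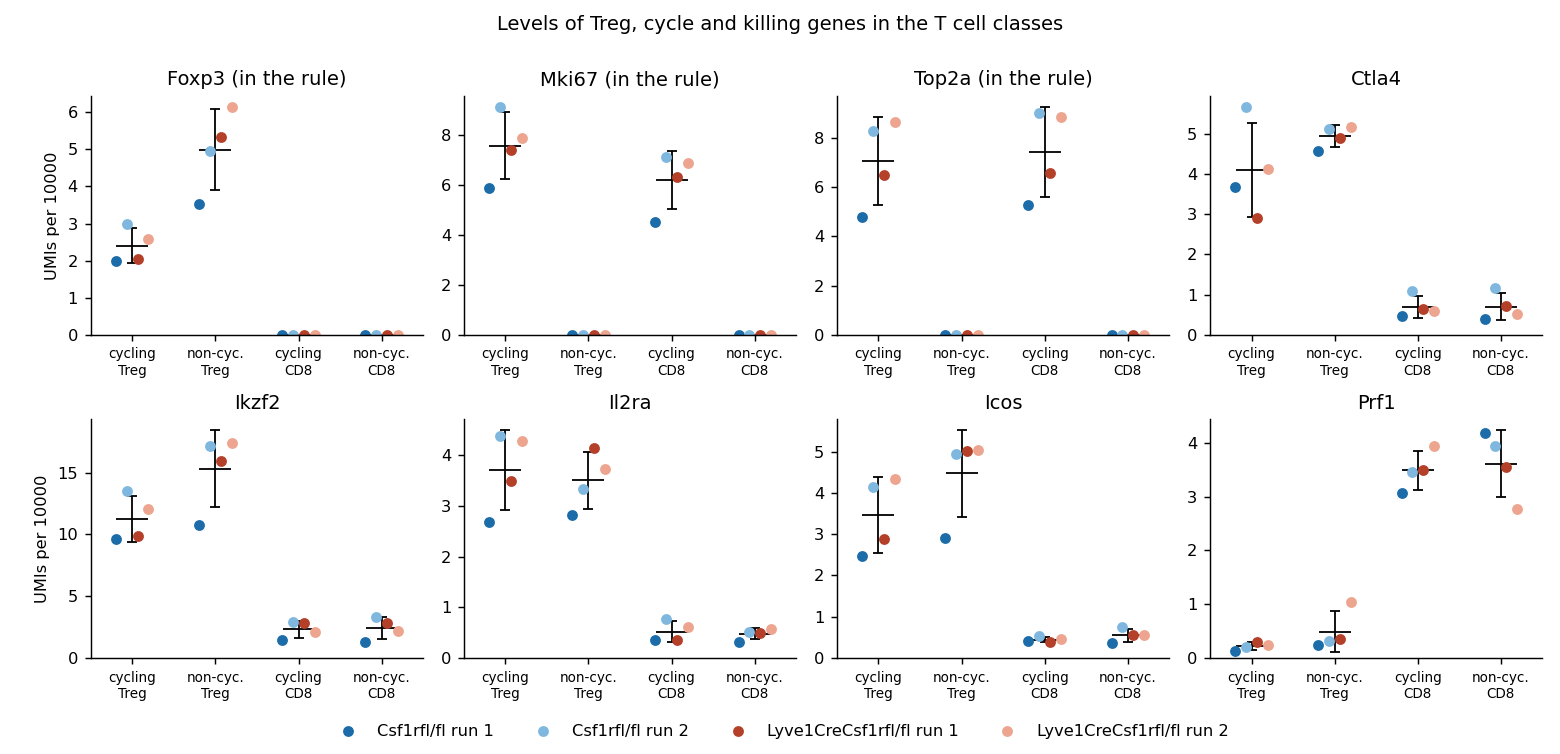
Level in UMIs per 10000 (y axis) of 8 genes in the 4 T cell classes (x axis), 1 point per tumor, with the mean and SD over the 4 tumors. Ctla4, Ikzf2, Il2ra and Icos are high in both Treg classes and low in both CD8 classes, and Prf1 has the opposite pattern; Foxp3, Mki67 and Top2a are set by the rule.

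Members were deeply sequenced, with a median of 8583.5 UMIs per cell (8348 to 9037 by tumor) and 940569 to 1522680 UMIs in a tumor's sum. Non-cycling Tregs had a median of 2896.5, cycling CD8 T cells 9254 and all kept cells of a tumor 3718 to 4668. The doublet caller Scrublet marked 35.2% of members in the Csf1rfl/fl tumor of run 1 and 15.3% to 17.4% in the other tumors, and of all members 19.7%, against 18.2% of non-cycling Tregs. The barcodes of 5 members were also kept in the other run. Csf1r had 0.898 and 0.964 UMIs per 10000 in all kept cells of Csf1rfl/fl and 0.430 and 0.454 in those of Lyve1CreCsf1rfl/fl, which is the direction of the labels. Lyve1 had 0 UMIs in members and 147 in all kept cells, and Csf1r 81 UMIs in 48 members. In all kept cells Lyve1 had 0.00763 and 0.00491 UMIs per 10000 in Csf1rfl/fl and 0.0116 and 0.0152 in Lyve1CreCsf1rfl/fl. It was thus not lower in Lyve1CreCsf1rfl/fl, on 20 to 43 UMIs per tumor. Ptprc, the gene of CD45, was detected in 97.2% of members.

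Members held transcripts of S phase and of mitosis in varying amounts. Short sets of genes were summed for each stage, Pcna, Mcm2, Mcm3, Mcm5, Mcm6, Rrm2, Tyms and Cdc6 for replication and Ccnb1, Cdc20, Plk1, Cenpe, Hmmr and Aspm for mitosis. At least 3 UMIs of the short replication set were held by 85.7% of members and at least 3 of the short mitotic set by 55.8%. At least 3 of each short set were held by 46.2% and of neither by 4.78%. The share for the short mitotic set was 62.6% in the Csf1rfl/fl tumor of run 1 and 53.4% to 54.8% in the others, and in cycling CD8 T cells it was 60%, with 86.4% for the short replication set. Transcripts of the histone list, core and linker histones that are mostly made in S phase, ranged widely between cells. They ran from 4.45 UMIs per 10000 at the 10th percentile to 145 at the 90th with a median of 53.9, and 1.79% of members had none. The whole G2 and mitosis list ranged from 99.3 to 412 and the whole replication list from 16.3 to 93.1 between the same percentiles. The histone sum of a tumor was 66.8 and 70.0 in the tumors of run 1 and 52.6 and 50.5 in those of run 2, higher in run 1 for either genotype. It was 3.82 to 4.61 in non-cycling Tregs. Library preparation captured polyadenylated RNA, and most core histone transcripts carry no poly(A) tail, so these levels stand for the captured part.

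Compared with non-cycling Tregs, members differed in many genes outside the rule and the cell cycle lists, some of which are still genes of division. Genes of nucleotide and one-carbon synthesis were higher, interferon-stimulated genes and some genes of resting T cells were lower, and Treg identity genes were lower per UMI at all depths but not as a group in cells of like depth. Genes were tested on UMIs summed per tumor with edgeR's quasi-likelihood test, with the tumor as a block and Benjamini-Hochberg adjustment, and fold changes are given on the log2 scale with their SE. Of 9245 genes tested outside the rule and the cell cycle lists, 3913 passed an adjusted p of 0.05 (42.3%), 2009 higher (21.7%) and 1904 lower (20.6%), with a median log2 fold change of -0.04.

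Genes of the cell cycle move with Mki67 and Top2a in a cell and so are described without a test. The summed level of the G2 and mitosis list was 237 ± 11.7 UMIs per 10000 in members and 39.6 ± 2.14 in non-cycling Tregs (SD, n = 4 tumors), that of the replication list 49.7 ± 8.24 and 10.1 ± 1.52. The median log2 fold change was 4.37 over 107 G2 and mitosis genes, 3.72 over 42 histone genes and 2.63 over 51 replication genes. Cdk1 had 1.22, 1.39, 1.62 and 1.31 UMIs per 10000 in members and 0.00969 to 0.0468 in non-cycling Tregs, so the tumors did not overlap. Plk1, a mitotic kinase, had 360 UMIs against 2 (141-fold per UMI, exact 95% interval 38.9 to 1172), and Kif2c, a kinesin that takes apart spindle fibers, 195 against 0, at least 51.1-fold higher with 3 UMIs as the floor over the 4 tumors.

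Outside the cell cycle lists, the genes with the largest fold were still genes of division and are likewise given without a test. Hist1h2af, a histone H2A gene, had 295 UMIs in members and 0 in non-cycling Tregs, at least 77.2-fold higher, and Ska1, which binds chromosomes to the spindle, 261 against 1 (205-fold, 36.5 to 8128). Histone genes are alike in sequence, so their counts are uncertain between copies. Traip, a ubiquitin ligase of stalled replisomes, Polq, a repair polymerase, Lrr1, which unloads the replication helicase, Pif1, a helicase, and Ankle1, a nuclease, had 87, 83, 76, 71 and 41 UMIs against 0, at least 22.8-, 21.7-, 19.9-, 18.6- and 10.7-fold higher. E2f8, a repressor of E2F targets, had 202 UMIs against 2 (79.3-fold, 21.7 to 660). The median over 24 genes of Cdk inhibitors, D cyclins, Myc and E2F regulators was 0.76, and these genes too are described without a test, since they act in the cycle. Foxm1, which drives the mitotic genes, differed by 5.39 ± 0.38, the kinase Cdk4 by 1.25, the inhibitor Cdkn2c (p18) by 2.33 ± 0.25 and Myc by 0.70 ± 0.19. Ccnd2, a D cyclin of early G1, differed by -0.70 ± 0.10 and the quiescence inhibitor Cdkn1b (p27) by -0.73 ± 0.11. Myc had 0.372, 0.444, 0.335 and 0.641 UMIs per 10000 in members and 0.197 to 0.363 in non-cycling Tregs, and these ranges overlapped.

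Of the nucleotide and one-carbon synthesis genes 26 of 28 were higher and 0 lower, with a median of 1.30, and in cells of 5000 to 20000 UMIs 22 were higher and 0 lower, with 1.23. Phgdh, the first enzyme of serine synthesis, had 1.79, 2.11, 1.85 and 2.15 UMIs per 10000 in members and 0.374, 0.407, 0.514 and 0.486 in non-cycling Tregs, a log2 fold change of 2.25 ± 0.13 (adjusted p = 6.17e-12), and all members' values lay above the others. Shmt1, which passes a carbon from serine to folate, differed by 3.42 ± 0.33, Psat1, the next enzyme of serine synthesis, by 2.20, Impdh2, the first step toward guanine nucleotides, by 2.01 ± 0.16, and Nme1, a nucleoside diphosphate kinase, by 1.29 ± 0.11. Impdh1 and Dck, which salvages deoxynucleosides, did not pass (0.22 and 0.33). Of 16 glycolysis genes 7 were higher and 2 lower (median 0.16), and 2 and 2 in cells of like depth. Of 21 genes of cholesterol and fatty acid synthesis 4 were higher and 2 lower, with a median of 0.39.

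Treg identity genes were lower in members per UMI at all depths, but not as a group in cells with 5000 to 20000 UMIs. Of 13 genes tested 0 were higher and 10 lower, with a median of -0.56. Members held a median of 8583.5 UMIs per cell and non-cycling Tregs 2896.5, so the comparison was repeated in cells with 5000 to 20000 UMIs. There were 60, 103, 109 and 89 such cycling cells (medians of 8970 to 10504.5) and 58, 79, 53 and 42 non-cycling cells (7284 to 8186), and 3025 of 8324 genes passed (36.3%), 1404 higher (16.9%) and 1621 lower (19.5%), with 2435 of the 3761 retested genes called again in the same direction. Cycling cells were still the deeper ones in each tumor, so these cells of like depth were closer in depth but not matched. The part of depth in the changes was not tested. Most of the non-cycling cells in this window were called doublets by Scrublet. Without called doublets 41, 84, 90 and 74 cycling but 13, 34, 23 and 26 non-cycling cells were left. Of 7657 genes 1668 then passed, 727 higher and 941 lower. In cells with 5000 to 20000 UMIs 2 identity genes were higher and 2 lower, with a median of 0.06, and without called doublets 2 of 12 were higher and 2 lower, with a median of 0.05. The nucleotide synthesis list then stood at 16 higher and 0 lower, the activated Treg list at 2 and 5 and the resting T cell list at 2 and 6. Ikzf2 had 9.64, 13.5, 9.83 and 12 UMIs per 10000 in members and 10.7, 17.1, 16 and 17.4 in non-cycling Tregs, a log2 fold change of -0.34 ± 0.11 (adjusted p = 0.0198), and it was 0.51 in cells of like depth (adjusted p = 0.00863). Il2ra had 2.69, 4.38, 3.49 and 4.28 against 2.82, 3.32, 4.14 and 3.73, which did not pass at all depths (0.16 ± 0.12, adjusted p = 0.322) and was higher in cells of like depth by 0.65 (adjusted p = 0.000335). Ctla4 had 3.69, 5.68, 2.90 and 4.13 against 4.58, 5.13, 4.89 and 5.19, with -0.22 ± 0.15 (adjusted p = 0.238) and 0.40 in cells of like depth (adjusted p = 0.0598). Ranges of members and non-cycling Tregs overlapped for all 3 genes. With each cell thinned to 3000 UMIs and shallower cells left out, a Ctla4 UMI was found in 53.1% of 480 members and 56.6% of 468 non-cycling Tregs, and an Il2ra UMI in 59.8% and 49.1%, while the unthinned shares were 76.7% and 63.0% for Ctla4 and 82.9% and 61.5% for Il2ra.

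The 27 tested genes of activated and tumor Tregs changed in that window as well. At all depths 2 were higher and 18 lower (median -0.55), and in cells of like depth 5 were higher and 7 lower (median -0.17). The 2 genes higher at all depths were Batf (0.51 ± 0.14, adjusted p = 0.00644) and Irf4 (0.87 ± 0.25, adjusted p = 0.00761), partner transcription factors of effector Tregs. Batf had 1.41, 1.38, 2.06 and 1.67 UMIs per 10000 in members and 1.14, 1.14, 1.74 and 0.893 in non-cycling Tregs. It was higher in each tumor, although the ranges overlapped. Icos, a costimulatory receptor, was lower by -0.29 ± 0.10 at all depths and higher by 0.48 in cells of like depth. Lower at both depths were Itgae (CD103, which holds T cells at epithelia; -1.51 ± 0.17 and -0.68) and Il1r2, a decoy receptor for interleukin-1 (-0.45 and -0.77).

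Of 16 genes of resting T cells 0 were higher in members, 7 were lower and 9 did not pass (median -0.58), and 2 were higher and 10 lower in cells of like depth (median -0.93), where the 2 higher genes were the transcription factor Ets1 (0.73) and S1pr1 (1.27). Il7r, the receptor of a survival cytokine of resting T cells, had 1.56, 1.58, 1.68 and 0.890 UMIs per 10000 in members and 4.35, 3.89, 5.59 and 3.48 in non-cycling Tregs, a difference of -1.51 ± 0.17 (adjusted p = 3.56e-07) with no overlap. The antiproliferative gene Btg1 differed by -1.27 ± 0.08 and Txnip, which curbs glucose uptake, by -1.29 ± 0.14. Of 32 genes of interleukin-2 and T cell receptor signalling 0 were higher and 20 lower at all depths, and 8 higher and 12 lower at like depth, where the adaptors Lat (0.92) and Zap70 (0.80) were higher and the receptor-induced gene Nr4a3 (-0.99) was lower. Of 18 homing genes 0 were higher and 11 lower (median -0.56), and 1 and 7 of 16 at like depth, and of 14 genes of T helper cytokines and killing 0 were higher and 7 lower (median -0.78).

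Interferon-stimulated genes were lower as a group, with 0 of 32 higher and 29 lower (median -0.61), and 0 and 25 in cells of like depth (median -0.69). Ifi27l2a, a gene induced by type I interferon, had 83.6, 55.2, 61.7 and 51.7 UMIs per 10000 against 135, 81.2, 113 and 87.1, a difference of -0.63 ± 0.06 (adjusted p = 2.69e-08). It was lower in members of each of the 4 tumors, and the ranges overlapped between 81.2 and 83.6. Isg15, a ubiquitin-like protein, differed by -0.83 ± 0.10 and Irf7, the amplifier of type I interferon, by -1.15 ± 0.13. The antigen processing genes Psmb8, Psmb9 and Tap1 did not pass (0.05, 0.12 and -0.05). Markers of myeloid cells moved in the same direction. All 10 macrophage and monocyte markers were detected, their summed level was 3.08 to 12.7 UMIs per 10000 in members and 11.8 to 32.8 in non-cycling Tregs, and 0 of 10 were higher and 10 lower (median -1.57). Of the dendritic cell markers 7 of 8 were lower (median -1.39), and of the neutrophil markers 2 of 6. Genes with the largest fall by the naming rule were mostly myeloid too: Cd209a (-3.14), Fn1 (-2.86), Saa3 (-2.62), Chil3 (-2.58), F13a1 (-2.47) and Vcan (-2.40), beside Dmkn (-3.51), Ccdc180 (-2.76), Hspb1 (-2.55) and Fbxo32 (-2.53). In cells of like depth without called doublets the interferon list stood at 0 higher and 19 lower (median -0.71) and the macrophage markers at a median of -3.88. Of all 7657 genes counted there 727 were higher and 941 lower. The part of myeloid transcripts in the other differences was not tested.

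**Figure D2:**
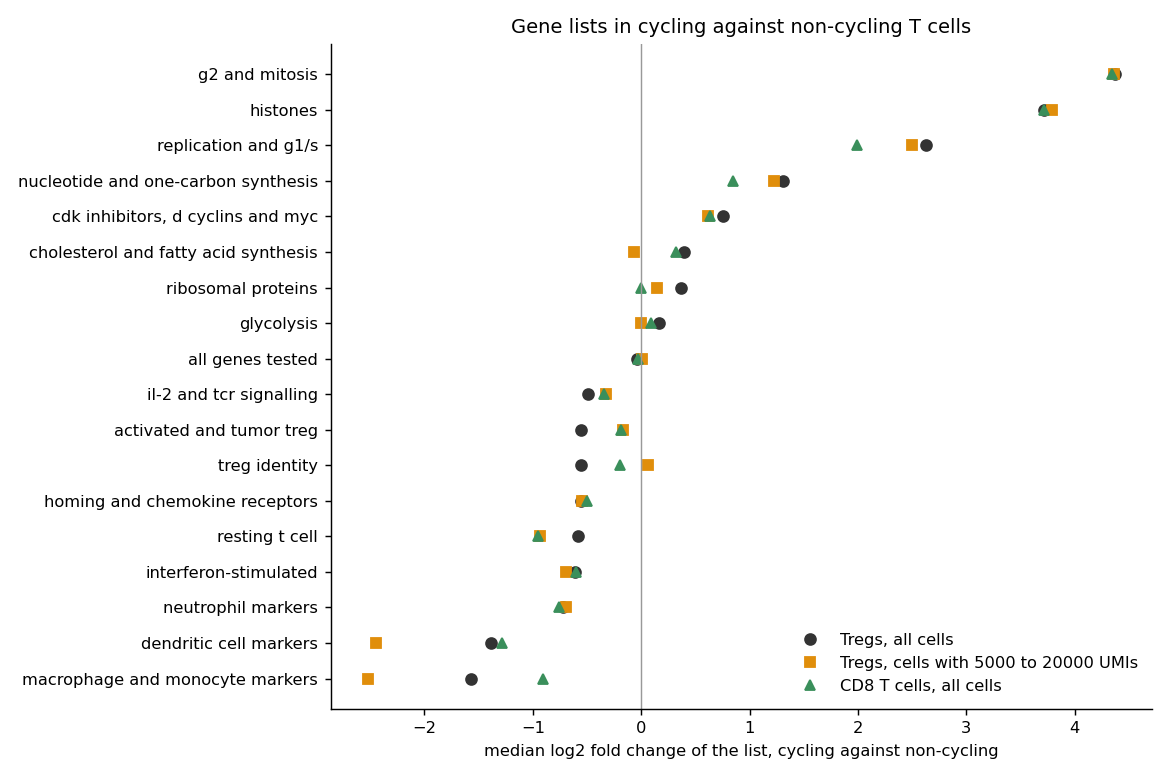
Median log2 fold change of each gene list (x axis) in cycling against non-cycling cells, for Tregs at all depths, Tregs with 5000 to 20000 UMIs and CD8 T cells at all depths. In Tregs the identity list stands at -0.56 at all depths and at 0.06 in cells with 5000 to 20000 UMIs. Nucleotide synthesis stands at 1.30 and 1.23 and the interferon list at -0.61 and -0.69, in the same order.

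The same contrast was made in CD8 T cells at all depths. Cycling and non-cycling CD8 T cells differed in 3459 of 9445 genes (36.6%), genes of the cell cycle lists included. Depth differed here too, with a median of 9254 UMIs per cell in cycling and 4354 in non-cycling CD8 T cells. In cells with 5000 to 20000 UMIs 2871 of 8521 genes passed, 1362 higher and 1509 lower. The overlap with Tregs that follows is from all depths and was not counted in that window. Of the 2009 genes higher in cycling Tregs 1351 were also higher in cycling CD8 T cells (67.2% of the Treg calls and 83.5% of the 1617 CD8 calls among the same genes), and of the 1904 lower genes 1155 were lower there (60.7% and 70.3%). Calls in opposite directions numbered 9 and 2. The nucleotide synthesis list had a median of 0.85 with 25 of 28 genes higher, the interferon list -0.60 with 28 of 32 lower, and resting T cell genes -0.95 with 16 of 16 lower. Macrophage and monocyte markers moved with them here too, with summed levels of 21.0, 10.1, 7.93 and 10.1 UMIs per 10000 in cycling and 24.5, 24.7, 18.7 and 27.6 in non-cycling CD8 T cells, and their part in the result was not tested.

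The test of the difference between the cycle effect in Tregs and in CD8 T cells called 191 of 9445 genes (2.02%), 144 with a more positive effect in Tregs (1.52%) and 47 with a more negative one (0.498%). Genes of the cell cycle lists were among those tested and counted here. Ribosomal protein genes, a list chosen after its values were seen, made up 69 of the 144: 69 of 89 were called higher and 0 lower, with a median difference of 0.38, and their median fold change with the cycle was 0.37 in Tregs and -0.0044 in CD8 T cells. In cells of like depth this contrast called 211 genes, 81 positive and 130 negative, 74 of the 191 genes were called again, and the ribosomal protein genes stood at 27 and 0 (median 0.21). Ribosomal protein genes have many near-identical pseudogenes, so their counts are uncertain. Of the nucleotide synthesis list 4 of 28 genes were more positive in Tregs and 0 more negative (median 0.50). The median difference over 51 replication genes was 0.49, with Mcm3 at 2.34 in Tregs and 1.27 in CD8 T cells and Mcm2 at 1.98 and 0.94, again given as a description. Phgdh rose by 2.25 and 1.22 (difference 1.02 ± 0.17, adjusted p = 0.00217), with 0.889 to 1.32 UMIs per 10000 in cycling CD8 T cells.

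S1pr1, the receptor by which lymphocytes leave tissues, had the largest positive difference (2.44 ± 0.38, adjusted p = 0.00113). It had 0.425, 0.623, 0.230 and 0.932 UMIs per 10000 in members and 0.117, 0.324, 0.194 and 1.17 in non-cycling Tregs, which did not pass as a rise (0.55 ± 0.26, adjusted p = 0.0936). In CD8 T cells it had 0.0527, 0.0905, 0.0719 and 0.215 when cycling and 0.0996, 0.418, 0.289 and 0.929 when not, a fall of -1.89 ± 0.27 (adjusted p = 1.39e-05). Cycling CD8 T cells were thus lower in every tumor, and members were higher in 3 of 4. Non-cycling cells of the Lyve1CreCsf1rfl/fl tumor of run 2 also differed in Tcf7, of the resting T cell list. It was found there in 47.9% of non-cycling CD8 T cells and 15.6% of non-cycling Tregs. In the other tumors it was found in 11.0% to 21.5% and in 2.22% to 5.48%. The part of such cells in the S1pr1 difference was not tested. Differences below 0 included Gzmb, the protease granzyme B (-0.93 ± 0.18, adjusted p = 0.00721), which was 2.64 to 3.49 in members, 3.64 to 5.85 in non-cycling Tregs and 4.59 to 7.36 in cycling CD8 T cells. The contrast rested on the tumors and on the block: edgeR called 0 genes without the Lyve1CreCsf1rfl/fl tumor of run 1 (951 at an unadjusted p under 0.05), 119 without the Csf1rfl/fl tumor of run 1, 91 without the Lyve1CreCsf1rfl/fl tumor of run 2, and 0 without the tumor as a block (650 at an unadjusted p under 0.05, and 176 by DESeq2 with the block).

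Members and cycling CD8 T cells had like depth, and the same cut of Mki67 and Top2a chose both. This contrast thus compares Tregs with CD8 T cells while both divide, and no cycling CD4 T cells without Foxp3 were compared. Summed Treg identity genes were 52.7 ± 4.18 UMIs per 10000 in members and 76.3 ± 7.06 in non-cycling Tregs at all depths (SD, n = 4 tumors). Foxp3, a gene of the rule, is in this sum, so the sum is a description. Outside the rule, Ctla4, Il2ra and Ikzf2 had overlapping ranges in both Treg classes, so their levels are not particular to Tregs that divide. Members were higher in most Treg identity genes and lower in most killing genes. Summed macrophage and monocyte markers were lower in members of every tumor (12.7, 6.49, 3.08 and 3.19 UMIs per 10000 against 21.0, 10.1, 7.93 and 10.1), with 0 of 10 markers higher and 2 lower, and their part in the result was not tested. Of 9444 genes 1576 passed (16.7%), 885 higher in members (9.37%) and 691 lower (7.32%), with a median of 0.03, and in cells with 5000 to 20000 UMIs 1358 of 8520 passed (15.9%), 651 higher (7.64%) and 707 lower (8.3%), with 1175 of the 1433 retested genes called again in the same direction. Without the tumor as a block 933 genes passed, 527 higher and 406 lower. Cell cycle lists follow the cut of Mki67 and Top2a that chose both classes, so their likeness is a description. Their medians were 0.18 for 51 replication genes, -0.03 for 107 G2 and mitosis genes and -0.07 for 42 histone genes.

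Of 12 Treg identity genes 11 were higher and 1 lower, with a median of 2.11. Il2ra had 0.352 to 0.767 UMIs per 10000 in cycling CD8 T cells, below all 4 values of members, with a log2 fold change of 2.79 ± 0.14 (adjusted p = 1.71e-12). Ctla4 had 0.458, 1.09, 0.632 and 0.580 there (2.57 ± 0.16, adjusted p = 1.29e-10) and Ikzf2 1.47, 2.92, 2.82 and 2.11 (2.29 ± 0.12, adjusted p = 6.73e-12), and neither overlapped with the members. Tnfrsf4 (OX40) had 7.16, 7.19, 8.90 and 5.91 in members and 0.952 to 1.32 in cycling CD8 T cells (2.62 ± 0.14), and Tnfrsf18 (GITR) 5.44, 5.14, 5.87 and 3.76 against 1.53 to 2.16 (1.53 ± 0.11). Lrrc32, which presents latent transforming growth factor beta on Tregs, had 54 UMIs against 4. The 1 lower gene was Nrp1, a marker of thymus-derived Tregs, with 0.159, 0.251, 0.0657 and 0.275 in members and 0.604 to 0.852 in cycling CD8 T cells (-2.07 ± 0.22). Thinned to 3000 UMIs, Ctla4 was detected in 53.1% of 480 members and 16% of 917 cycling CD8 T cells (76.7% and 34.7% unthinned).

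Of 27 genes of activated and tumor Tregs 18 were higher and 6 lower (median 1.05). Icos had 2.47, 4.16, 2.89 and 4.33 UMIs per 10000 against 0.395 to 0.535 (2.87 ± 0.11, adjusted p = 7.25e-14). Klrg1, a mark of effector Tregs (3.81 ± 0.23), Itgae (3.67 ± 0.25), Areg, a growth factor of tissue Tregs (3.85 ± 0.32), the transcription factor Maf (3.03 ± 0.21) and Il10, a suppressive cytokine (2.90 ± 0.41), were higher as well. The lower genes included the checkpoint receptors Pdcd1 (-1.70) and Lag3 (-1.40) and Gzmb (-1.02 ± 0.13). Of 14 tested genes of T helper cytokines and killing 0 were higher and 12 lower (median -2.06). Ifng had 0.170, 0.0645, 0.112 and 0.108 in members and 2.20 to 3.10 in cycling CD8 T cells (-4.60 ± 0.23, adjusted p = 1.97e-12), and Prf1, the pore protein of cytotoxic granules, 0.128, 0.208, 0.302 and 0.241 against 3.07, 3.45, 3.5 and 3.95 (-3.97 ± 0.26, adjusted p = 2.62e-10). Il2, Il4, Il5, Il17a and Il22 had 0 UMIs in members.

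**Figure D3:**
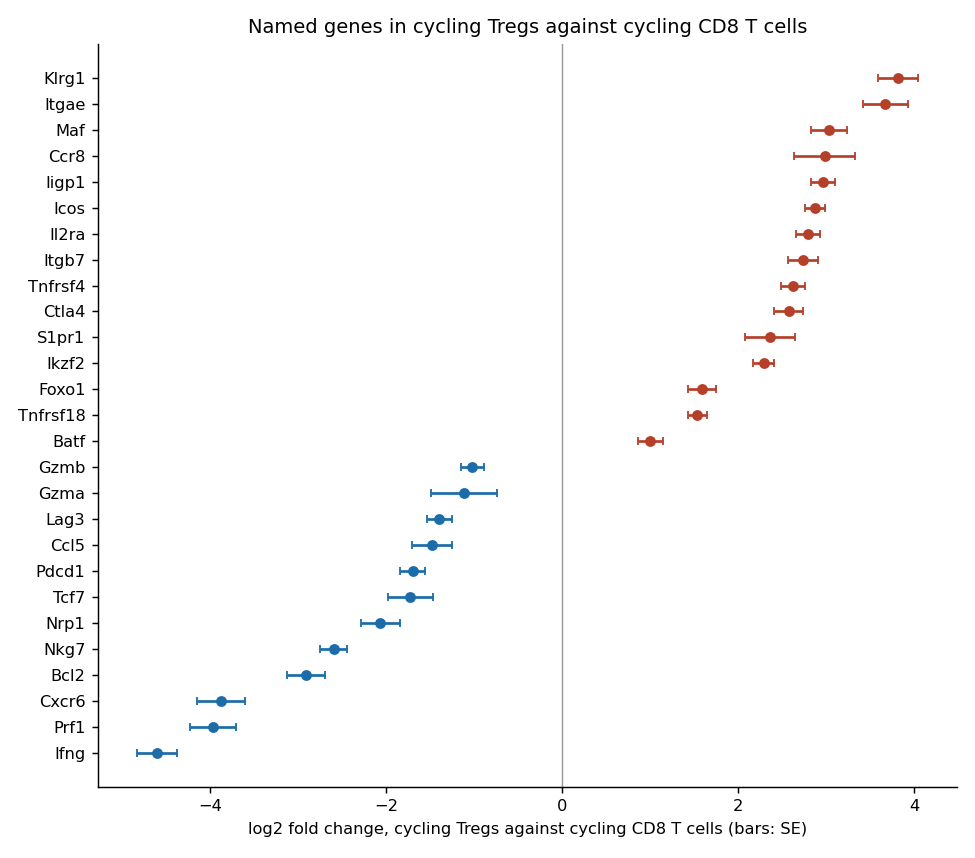
Log2 fold change with its SE (x axis) of 27 listed genes in cycling Tregs against cycling CD8 T cells, fitted over 4 tumors. Most Treg receptors, tissue Treg genes and Iigp1 lie to the right, up to 3.81 for Klrg1. Killing genes lie to the left, down to -4.60 for Ifng, and so do Nrp1, Pdcd1, Lag3, Bcl2 and Tcf7.

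Homing and survival genes divided between the classes. Of 18 homing genes 7 were higher and 6 lower. Ccr4, a receptor for Ccl17 and Ccl22, had 33 UMIs in members and 0 in cycling CD8 T cells, at least 23.0-fold higher. Ccr8, a receptor of tumor Tregs, was higher by 2.98 ± 0.35 and Itgb7, an integrin of gut and epithelial homing, by 2.73 ± 0.17, while Cxcr6 was lower by -3.88 ± 0.27. Of 16 resting T cell genes 7 were higher, among them S1pr1 (2.36 ± 0.28), Foxo1 (1.59) and Il7r (1.08 ± 0.18), and 5 were lower, among them the survival factor Bcl2 (-2.91 ± 0.21; 0.0860 to 0.181 UMIs per 10000 against 0.755 to 1.26) and Tcf7, a factor of memory T cells (-1.73). Among interferon-stimulated genes 15 of 32 were higher and 0 lower (median 0.31). Iigp1, an interferon-gamma-induced GTPase, had 1.49, 2.77, 1.64 and 2.08 against 0.201 to 0.296 (2.96 ± 0.14, adjusted p = 1.05e-12). Nucleotide synthesis differed in 3 of 28 genes, among them Phgdh (0.85 ± 0.10), glycolysis in 9 of 16 (7 higher, 2 lower) and cholesterol and fatty acid synthesis in 6 of 21, all higher.

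Genes of large fold against cycling CD8 T cells included, beside Ccr4, the hormone gene Rln3 (31 UMIs against 1, 64.7-fold, 10.8 to 2638), the potassium channel gene Kcnj15 (22 against 1, 45.9-fold, 7.43 to 1896), the protease gene Pcsk1 (37 against 2, 38.6-fold, 9.97 to 331) and Ncmap (36 against 3, 25.1-fold, 7.92 to 127). Genes of large fold in the other direction included Slc17a6, Gzme, a granzyme of activated CD8 T cells, and Exph5, with 0 UMIs against 343, 245 and 171 (at least 54.7-, 39.1- and 27.3-fold lower), and the gamma T cell receptor genes Tcrg-C2 (2 UMIs against 957, 229-fold, 63.3 to 1895) and Trgv2 (5 UMIs against 1400, -7.07 ± 0.27). Gamma receptor segments are alike in sequence, so their counts are uncertain between members of the family.

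By genotype, members made up a larger share of Foxp3 T cells and of all leukocytes in both Lyve1CreCsf1rfl/fl tumors when all cells were counted at full depth, and this order changed with thinning for both shares and with the strict gate for the first. Members made up 26.2% (exact 95% interval 21.7 to 31.2) and 24.8% (21.3 to 28.6) of Foxp3 T cells in Csf1rfl/fl and 27.3% (23.7 to 31.2) and 29.6% (25.1 to 34.3) in Lyve1CreCsf1rfl/fl, 25.5% ± 0.993 against 28.4% ± 1.62 (SD, n = 2 tumors each). The mean log2 ratio was 0.16, with 0.06 in run 1 and 0.25 in run 2, and the exact two-sided permutation p was 0.333, the smallest that 2 against 2 tumors can give. With cells thinned to 3000 UMIs the log2 ratio was -0.00175, with the strict lineage gate 0.034 (-0.11 in run 1, where the shares were 28.7% and 26.6%), and in cells with 5000 to 20000 UMIs 0.39, or 0.090 (-0.058 in run 1) without the called doublets among them. Intervals of the cells cover counting error only. Of all kept cells members made up 1.06% and 1.77% in Csf1rfl/fl and 2.14% and 2.47% in Lyve1CreCsf1rfl/fl, 1.41% ± 0.506 against 2.31% ± 0.237, a log2 ratio of 0.75 (1.02 and 0.48 within the runs, exact permutation p = 0.333), which ranged from 0.38 to 1.12 when 1 tumor was left out. Both Lyve1CreCsf1rfl/fl tumors lay above both Csf1rfl/fl tumors at full depth, but with cells thinned to 3000 UMIs the shares were 0.562% and 1.19% against 0.986% and 1.48% and overlapped (log2 ratio 0.56, exact permutation p = 0.667), while it was higher in Lyve1CreCsf1rfl/fl in each run (0.81 and 0.32). The log2 ratio was 0.49 with the strict gate and 0.86 without called doublets, each without overlap. With only members of 5000 to 20000 UMIs counted, over kept cells of any depth, it was 0.80, also without overlap. Shares of kept cells also move with the cells the authors removed, among them clusters of lymphocytes particular to the second Lyve1CreCsf1rfl/fl tumor, and with the number of all other leukocytes. Members per cycling CD8 T cell numbered 0.265 and 0.627 in Csf1rfl/fl and 0.975 and 0.551 in Lyve1CreCsf1rfl/fl, in opposite order in the runs.

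**Figure D4:**
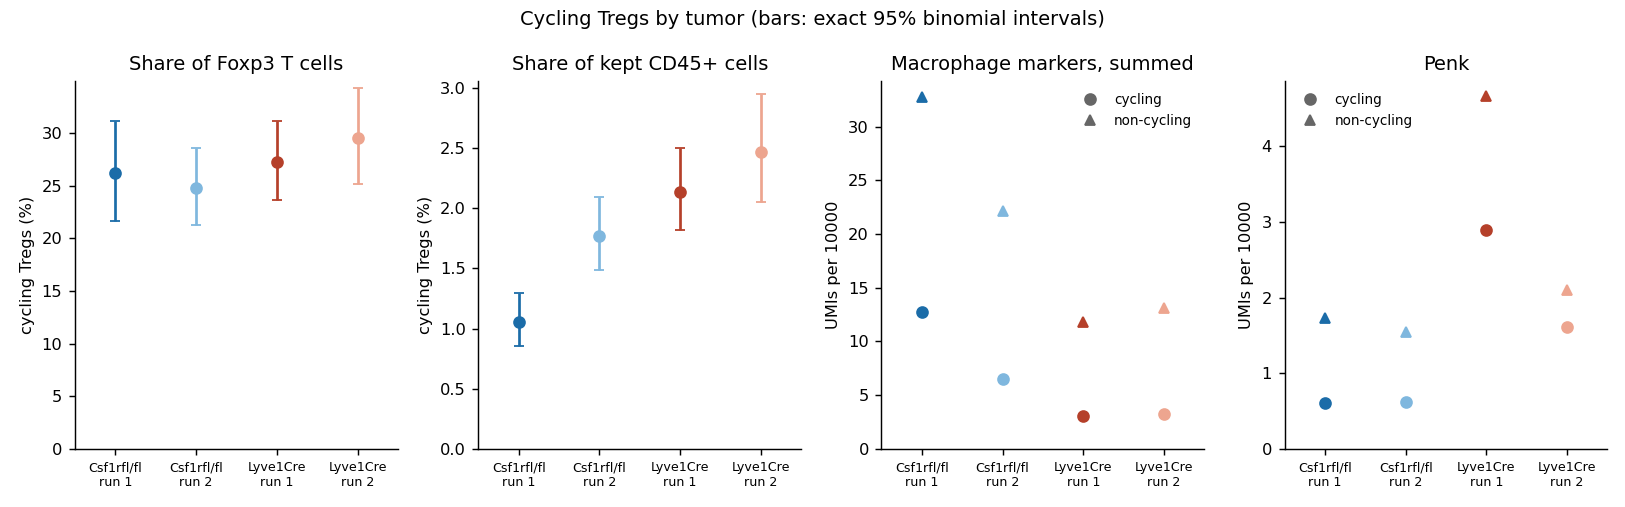
Share of cycling cells among Foxp3 T cells and share of cycling Tregs among kept cells by tumor (y axes in percent, bars exact 95% binomial intervals), and the summed level of 10 macrophage and monocyte markers and the level of Penk in cycling (circles) and non-cycling (triangles) Tregs (UMIs per 10000). Shares of Foxp3 T cells lie between 24.8% and 29.6%, macrophage markers are higher in both Csf1rfl/fl tumors, and Penk is higher in both Lyve1CreCsf1rfl/fl tumors.

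Few genes of members passed a test by genotype, and these included genes known from myeloid cells. Of 8578 genes 6 passed (0.0699%), 0 higher and 6 lower in Lyve1CreCsf1rfl/fl, all with an adjusted p of 0.0332. Ccl2, a chemokine of monocytes, had 1.10 and 0.552 UMIs per 10000 in Csf1rfl/fl and 0.0722 and 0.0416 in Lyve1CreCsf1rfl/fl (-3.77 ± 0.47). The others were the scavenger receptor Msr1 (-2.41 ± 0.35), the interleukin-1 antagonist Il1rn (-1.80 ± 0.26), the matrix protein gene Thbs1 (-2.44 ± 0.36), G0s2, an inhibitor of lipolysis (-3.31 ± 0.48), and the olfactory receptor gene Olfr655 (-5.53 ± 0.76). Macrophage and monocyte markers summed to 12.7 and 6.49 UMIs per 10000 in members of Csf1rfl/fl and 3.08 and 3.19 in Lyve1CreCsf1rfl/fl, neutrophil markers to 3.92 and 2.02 against 0.788 and 0.458. Non-cycling Tregs had macrophage marker sums of 32.8 and 22.1 against 11.8 and 13.1. Without cells called doublets 0 genes passed (195 at an unadjusted p under 0.05) and G0s2 turned direction (0.71, and 0.35 with the run as a block), and with a strict gate against transcripts of other lineages 0 as well (269). DESeq2 called 18 genes in all members. Leaving out 1 tumor in turn gave 13 and 201 genes without the Csf1rfl/fl tumor of run 1 and of run 2 and 93 and 65 without the Lyve1CreCsf1rfl/fl tumor of run 1 and of run 2, where the lone tumor of a genotype is assumed to vary like the other genotype.

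With the Chromium run as a block, since both genotypes shared each run, 137 genes passed (1.6%), 7 higher (0.0816%) and 130 lower (1.52%). All of the 6 genes above were among them. Run and genotype fitted on 4 sums leave few residual degrees of freedom. The SE and adjusted p of this fit therefore rest largely on the spread shared across genes, and less on the tumors of a single gene. Of the macrophage markers 7 of 9 tested were lower and of the neutrophil markers 4 of 5, while 0 genes of the activated Treg list passed, and 0 of the Treg identity list with Foxp3 left aside as a gene of the rule. The 7 higher genes were Penk, Alpk2, Mdn1, Hspd1, Hspe1, Npm1 and Rps21. Penk, the precursor of enkephalins, which lies at chr4:4133536-4138815, had 0.606 and 0.623 UMIs per 10000 in Csf1rfl/fl and 2.89 and 1.61 in Lyve1CreCsf1rfl/fl. Its log2 difference was 1.91 ± 0.33 without the block (adjusted p = 0.0518) and 1.81 ± 0.19 with it (adjusted p = 3.98e-05). Non-cycling Tregs had 1.73 and 1.54 against 4.66 and 2.10, higher in both runs (1.02 ± 0.36, adjusted p = 0.683), and cycling CD8 T cells 0.230 and 0.185 against 0.374 and 0.657. Npm1, a nucleolar protein of ribosome assembly, had 15.8 and 13.5 against 19.1 and 18.3 (0.36 ± 0.07, adjusted p = 0.00803), and the mitochondrial chaperone Hspd1 2.09 and 3.27 against 3.34 and 4.69 (0.60 ± 0.12, adjusted p = 0.0102). Alpk2 rested on the Lyve1CreCsf1rfl/fl tumor of run 2, with 0.591 UMIs per 10000 there and 0.0106 to 0.0788 in the others.

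With the block and without called doublets 22 of 7804 genes passed (0.282%), 9 higher (0.115%) and 13 lower (0.167%). Of the 6 genes above 3 could be tested there and 1 passed again, Olfr655. Penk (1.96 ± 0.19, adjusted p = 5.37e-14), Npm1 (0.45 ± 0.07), Hspd1 (0.68 ± 0.12) and Mdn1 (1.46 ± 0.32) were higher again. The SE and adjusted p of this fit too rest largely on the spread shared across genes. Ctla4 passed as lower (-0.56 ± 0.11, adjusted p = 0.000952), which it did not with doublets (-0.40 ± 0.11, adjusted p = 0.1). Its values in all members were 3.69 and 5.68 against 2.90 and 4.13, lower in Lyve1CreCsf1rfl/fl in each run with overlapping ranges. The genotype difference itself differed between cycling and non-cycling Tregs in 9 of 9088 genes (0.099%), 2 higher (0.022%) and 7 lower (0.077%). Ccl22, a chemokine that draws Tregs, and the actin gene Actb were the 2 higher genes, and the 7 lower ones (Cstdc4, G0s2, Il1rn, Ier3, Ccl4, Wfdc17 and Il1b) are known mostly from myeloid cells. Without called doublets 8 genes passed this test, with 0 of these 9 among them, while with the strict gate 8 of the 9 passed again, and without called doublets Ccl22 (-1.18) and Il1b (0.53) turned direction. It called 38 and 24 genes without the Csf1rfl/fl tumor of run 1 and of run 2, 9 without the Lyve1CreCsf1rfl/fl tumor of run 1 and 5 without that of run 2.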

How the data were processed

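Viable CD45+ cells of 4 tumors were measured by 10x single-cell RNA sequencing in 2 Chromium runs. The deposited raw UMI counts and hashtag counts were made by the authors with Cell Ranger 6.0.1 on mm10, and the deposited scores (SCTransform corrected counts, from Seurat) were used only for the names of the cells that the authors kept, which were singlets with under 5% mitochondrial reads outside clusters particular to the second Lyve1CreCsf1rfl/fl tumor. A cell's tumor was that of the higher hashtag of its run, and a deposited text file, whose other columns were not used, named the tumor of each hashtag. Members and gene lists were chosen with earlier results of these data known.

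Raw UMIs were summed per tumor and class and tested with edgeR 4.0.16 (filterByExpr, TMM, quasi-likelihood test, Benjamini-Hochberg over all genes tested, threshold 0.05) in R 4.3.3. Members and the 3 other classes shared 1 fit of 16 sums with the tumor as a block. Genotype was tested in the 4 sums of members. Named genes were those of the lists, and the 10 higher and 10 lower genes of largest fold with at least 20 UMIs, an adjusted p under 0.05 and 1 direction in all tumors, of which examples are given. Doublets were left in and called by Scrublet (scanpy 1.11.5, expected rate 0.2, per run) for the alternatives. Shares were tested by an exact permutation test (scipy 1.17.1) with exact binomial intervals. The numbers of the 2 runs pair the tumors, since 1 tumor of each genotype shared a run, and their deviations from the genotype means correlated (r = 0.481 over 4175 genes). Each tumor is 1 mouse, so n is 2 per genotype. The scripts were tested on simulated counts. Alternatives were DESeq2 1.42.0, its size factors, no filter on low counts, other gates, a depth window, and leaving out each tumor.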

Additional observations from a re-analysis of the deposited data

Results flagged for a closer look

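The effect of the cycle differed between Tregs and CD8 T cells by a test of the difference itself in 191 genes, genes of the cell cycle lists included. On the log2 scale the difference was positive, meaning a more positive cycle effect in Tregs, for S1pr1 (2.44), Bcat1 (2.16), Cmah (1.92), Shmt1 (1.85), Cd3eap (1.66), Entpd5 (1.62), Hadh (1.50), Kif15 (1.48), Pmepa1 (1.42) and Srm (1.37), of which Bcat1 begins the breakdown of branched amino acids, Srm makes spermidine and Cd3eap is a subunit of RNA polymerase I. The difference was also positive for Phgdh (1.02), Impdh2 (0.83) and Nme1 (0.69) and for the replication helicase subunits Mcm2 (1.03), Mcm3 (1.08), Mcm5 (1.06) and Mcm6 (0.91). These subunits and Kif15 are in the cell cycle lists, whose genes move with Mki67 and Top2a, so their values are a description. The difference was negative for Il1rl1, the interleukin-33 receptor (-3.00), Tbc1d30 (-2.47), Guca1a (-2.27), Ccl6 (-1.84), Clec12a (-1.75), Adssl1 (-1.63), Slc11a1 (-1.51), Fmnl3 (-1.41), Prc1, a spindle midzone protein of the cell cycle lists and likewise a description (-1.37), Plk2 (-1.36), Ccl3 (-0.997), Tnfrsf9 (-0.96) and Gzmb (-0.93). Ccl6, Clec12a and Slc11a1 are known from myeloid cells, and the part of myeloid transcripts in their difference was not tested.

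The effect of genotype differed between cycling and non-cycling Tregs in 9 genes, by the test of the interaction. It was higher in cycling Tregs for Ccl22 (2.98) and Actb (0.38) and lower for Cstdc4 (-3.03), G0s2 (-2.26), Il1rn (-1.62), Ier3 (-1.54), Ccl4 (-1.26), Wfdc17 (-1.21) and Il1b (-1.03). With the strict gate 8 of these 9 genes passed again and all 9 kept their sign. Without called doublets 0 of these 9 genes passed, 7 kept their sign, and Ccl22 (-1.18) and Il1b (0.53) turned direction.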

How the results depend on the processing

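Over 177 pairs of a named gene and a comparison, 1686 of 2102 values under alternatives kept their direction and side of the threshold, 380 no longer passed, 13 newly passed and 23 turned direction. The log2 ratio of the share among Foxp3 T cells was 0.16 with the replicate block, ranged from 0.10 to 0.21 without 1 tumor, and was -0.00175 after thinning and 0.034 with the strict gate. That of the share among kept cells was 0.75 with the replicate block, ranged from 0.38 to 1.12 without 1 tumor, and was 0.56 after thinning. Genotype counts in members (6) were 137 with the replicate block, 94 with it and the strict gate, 22 with it and without called doublets, 0 with the strict gate, 0 without called doublets, 18 by DESeq2, 141 without a filter and 13 to 201 without 1 tumor. The count of genes whose genotype effect differed by class (9) was 3 by DESeq2, 44 without a filter, 27 with the strict gate and 5 to 38 without 1 tumor. Cycling against non-cycling Tregs (3913) gave 1668 genes in cells of like depth without called doublets and 2838 with no replicate block, and against cycling CD8 T cells (1576) 933 with no replicate block. The Treg and CD8 cycle difference (191) gave 88 in cells of like depth without called doublets, 372 without a filter, 0 with no replicate block and 0 to 135 without 1 tumor. The cause of these changes was not tested.

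Genes that turned direction in cycling against non-cycling Tregs, in cells of like depth and then also without called doublets, were Ikzf2 (0.51 and 0.42), Tnfrsf4 (0.12 and 0.21), Icos (0.48 and 0.53), Ets1 (0.73 and 0.66), Il2rb (0.34 and 0.11) and Idi1 (-0.093 and -0.25), with Psmb8 (-0.29) in the first and Nme2 (-0.10) and Slc2a3 (0.11) in the second. Ctla4, which did not pass at all depths, was 0.40 and 0.62 there and passed in the second. By genotype G0s2 turned to 0.71 without called doublets and 0.35 with the replicate block as well, Il1b to 0.58 and 0.45, and Alpk2 under the block to -1.16 without the Lyve1CreCsf1rfl/fl tumor of run 2 (4.53 at most without another). The genotype effect by class turned for Ccl22 (-1.18) and Il1b (0.53) without called doublets. The number of tumors, 2 per genotype, limits the precision of each comparison by genotype.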
